A study of Homo sapiens with 12 samples.

Results

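The APOBEC3 genes encode 7 cytidine deaminases, APOBEC3A, APOBEC3B, APOBEC3C, APOBEC3D, APOBEC3F, APOBEC3G and APOBEC3H, and their transcripts are described here in a pair of colorectal cancer cell lines. The members were the genes of that name in the platform annotation, and each had 1 transcript cluster (the set of probes that reports a gene) among the 28869 clusters of the deposited table, of which 21062 carried at least 1 gene symbol. The cluster of APOBEC3A (8073056) also named APOBEC3A_B, the hybrid gene of an allele in which APOBEC3B is deleted, so those transcripts share 1 value. HCT116 and DLD1 are epithelial lines from colorectal carcinomas, each with an activating mutation in an allele of a PI3K catalytic subunit, and the mutation differs between the lines. In the cells measured, gene targeting had removed the mutated allele (wild-type-only) or the wild-type allele (mutant-only), so that every group carries a knocked-out allele and no unedited parental cells are among the samples. All cells were kept in McCoy's medium with 0.5% serum for 19 h, and 500 ng of total RNA per sample was labelled for Affymetrix HuGene arrays. The 12 arrays form 4 groups of 3 samples labelled as biological replicates, namely HCT116 wild-type-only, HCT116 mutant-only, DLD1 wild-type-only and DLD1 mutant-only. The labels name 1 derived line per genotype and parent, so differences between derived lines and differences of genotype cannot be told apart.

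APOBEC3 enzymes turn cytosine into uracil in single-stranded DNA. The family is a tandem array of genes on chromosome 22 that is known for restricting retroviruses and endogenous retroelements: APOBEC3G, APOBEC3F, APOBEC3D and some forms of APOBEC3H enter virus particles and mutate the viral DNA as it is made. APOBEC3A and APOBEC3B are known for cytosine mutations in tumour genomes, and several members are induced by interferon in immune cells. APOBEC3A, APOBEC3C and APOBEC3H have a single zinc-binding deaminase domain, and the others have a pair. The genes are close in sequence, so a probe of one may also bind transcripts of another, which was not tested.

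Levels are the authors' log2 values, on which a difference of 1 is a doubling, with the SD over the 3 arrays of a group as the error of a mean and the limma SE as that of a difference. Arrays carry the replicate number of the labels (array 1 to 3). Array medians lay between 7.42 and 7.53, and Pearson correlations across clusters were 0.9952 to 0.9983 within groups. The mean level over 10 epithelial markers was 10.15 to 10.26 on the HCT116 arrays and 11.17 to 11.32 on the DLD1 arrays. Levels differed widely among these markers. Group means were 12.28 to 12.57 for EPCAM, 7.75 to 7.84 for CDX1 and 6.51 to 6.99 for VIL1. CDH17, a cadherin of intestinal epithelium, stood at 5.59 ± 0.15 in HCT116 wild-type-only and 10.51 ± 0.01 in DLD1 wild-type-only cells (SD, n = 3). The mean over 13 lymphocyte markers was 6.57 to 6.70 on all arrays, and over 7 myeloid markers 6.55 to 6.73. Between genotypes in HCT116, 2 of the 10 epithelial markers rose and 1 fell, or 30% against 5.45% of all clusters with a symbol. The adhesion molecule CDH1 rose by 0.20 (limma adjusted p = 0.026), the keratin KRT8 by 0.20 (adjusted p = 0.0384), and the tight junction gene CLDN7 fell by 0.29 (adjusted p = 0.0168). Without 1 array these calls failed in 4, 7 and 3 of 12 fits (adjusted p up to 0.105, 0.127 and 0.0774). In DLD1 CDH17 alone was called, or 10% against 8.29% of those clusters, and it rose by 0.60 (limma adjusted p = 0.000185). With the replicate number as a block, where 12.8% of the clusters were called, KRT19 was also called lower (adjusted p = 0.0216) and CDX2 higher (adjusted p = 0.034). None of the lymphocyte or myeloid markers passed the test between genotypes of a line in limma, and 4 in all had an unadjusted p under 0.05, 2 in each line. With that block the myeloid marker LYZ was called lower in HCT116 (adjusted p = 0.0212). The genotype change of the lymphocyte marker CD8A differed between lines (0.33, adjusted p = 0.0306), a call that failed in 7 of the 12 fits without 1 array (up to 0.0717). The part of such markers in the results was not tested. Differences were tested with limma over all 21062 clusters with a symbol, adjusted by the Benjamini-Hochberg method and called at an adjusted p under 0.05. APOBEC3G was known to be low in DLD1 mutant-only cells when the family was chosen, so its comparisons that include DLD1 are given as values with no p.

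APOBEC3G (transcript cluster 8073088) is the best studied antiviral member, the target of the HIV protein Vif. It read 8.60, 8.78 and 8.77 on the DLD1 wild-type-only arrays and 6.87, 6.67 and 6.87 on the DLD1 mutant-only arrays. In HCT116 it read 6.66, 6.83 and 6.61 in wild-type-only and 6.47, 6.90 and 6.65 in mutant-only cells. The DLD1 wild-type-only arrays therefore stood apart above all 9 others, whose groups overlapped one another. Group means were 8.71 ± 0.10 in DLD1 wild-type-only, 6.81 ± 0.11 in DLD1 mutant-only, 6.70 ± 0.12 in HCT116 wild-type-only and 6.67 ± 0.22 in HCT116 mutant-only cells (SD, n = 3). In DLD1 it was 3.76-fold lower in mutant-only cells, a fall that 5 other clusters of the 21062 equalled or exceeded. In bulk RNA, fewer cells with the transcript and less of it per cell cannot be told apart. In wild-type-only cells it was 4.05-fold lower in HCT116 than in DLD1, and in mutant-only cells the line difference was -0.13 (95% interval -0.35 to 0.087). In HCT116 the genotypes differed by -0.026 (interval -0.25 to 0.19, limma adjusted p = 0.94). Both HCT116 means were near that of DLD1 mutant-only cells and under 7.54, the 40th percentile of clusters with a symbol. Whether a fall as large as that in DLD1 could be read from so low a level was not tested.

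APOBEC3F (8073081), a partner of APOBEC3G in restricting HIV, had genotype differences of opposite sign in the 2 lines. In HCT116 it read 9.19, 8.98 and 9.40 in wild-type-only and 9.49, 9.20 and 9.61 in mutant-only cells, and the groups overlapped. In DLD1 it read 9.61, 9.62 and 9.91 in wild-type-only and 9.36, 9.38 and 9.54 in mutant-only cells, where every mutant-only array was below every wild-type-only one. The differences were 0.24 in HCT116 (SE 0.123, limma adjusted p = 0.33) and -0.29 in DLD1 (SE 0.123, adjusted p = 0.19), and neither passed. Arrays with the same replicate number shifted together in this gene, and with the replicate number as a block both passed (adjusted p = 0.0138 in HCT116 and 0.00476 in DLD1). The difference between lines in the genotype change was 0.53, with adjusted p = 0.0984 without the block and 0.00122 with it.

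APOBEC3D (8073072), another double-domain antiviral member, had the narrowest range of the family. Its 12 arrays lay between 8.14 and 8.46, with group means of 8.21 to 8.30. The genotype difference was -0.0057 in HCT116 (95% interval -0.17 to 0.15, limma adjusted p = 0.985) and -0.0904 in DLD1 (interval -0.25 to 0.069, adjusted p = 0.532). Its 4 group means spanned 0.0904, and 86.4% of the clusters with a symbol had a wider span.

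APOBEC3H (8073096), a single-domain member whose antiviral activity depends on its inherited form, also had differences of opposite sign. In HCT116 it read 6.70, 6.55 and 6.65 in wild-type-only and 6.79, 6.91 and 7.03 in mutant-only cells, with no overlap. In DLD1 it read 6.27, 6.30 and 6.56 in wild-type-only and 6.30, 6.07 and 6.12 in mutant-only cells, where the groups overlapped. The differences of 0.28 in HCT116 (SE 0.0896, limma adjusted p = 0.101) and -0.21 in DLD1 (SE 0.0896, adjusted p = 0.187) did not pass singly, whereas the difference between them did (0.49, SE 0.127, adjusted p = 0.0352). That call was lost in 7 of the 12 fits that left out an array: HCT116 wild-type-only array 2 (0.085) or 3 (0.061), HCT116 mutant-only array 2 (0.066) or 3 (0.0773), DLD1 wild-type-only array 3 (0.0638), and DLD1 mutant-only array 2 (0.0877) or 3 (0.082). It was also lost with all 28869 clusters in the fit (0.0589) and with array weights (0.0775). Of the 7 members, RefSeq's promoter table (GRCh38.p14) held an entry for APOBEC3H only. The 250 bases before its start, at chr22:39096994-39097243 on the plus strand, are shown for that reason.
APOBEC3H: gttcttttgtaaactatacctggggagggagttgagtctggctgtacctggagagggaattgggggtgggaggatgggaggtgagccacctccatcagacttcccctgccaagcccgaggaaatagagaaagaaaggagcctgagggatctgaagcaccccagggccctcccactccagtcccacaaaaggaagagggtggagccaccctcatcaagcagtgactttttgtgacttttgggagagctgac
The window was searched on both strands for the interferon response element (GAAA, any 2 bases, GAAA), the STAT element GAS (TTCNNNGAA), an NF-kB type sequence (GGG, any 2 bases, TTTCC) and the AP-1 site TGANTCA. It held no match, so no base is in capitals. In the order given, these motifs occur in 3.02%, 6.57%, 1.73% and 6.57% of the same windows of all 35116 promoters. The absence says only that these letters are not in this window.

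APOBEC3C (8073068), a single-domain enzyme with weak antiviral activity, was the member that rose in HCT116. It read 10.51, 10.63 and 10.66 in wild-type-only and 10.87, 10.84 and 11.03 in mutant-only cells, so that every mutant-only array was higher. The change was 0.31 (SE 0.0768), or 1.24-fold, with a limma adjusted p of 0.0315. In DLD1 the arrays read 10.85, 10.98 and 11.10 in wild-type-only and 10.74, 10.90 and 10.89 in mutant-only cells, which overlapped (-0.13, SE 0.0768, adjusted p = 0.353). The changes in the lines differed by 0.44 (SE 0.109, adjusted p = 0.0262). The HCT116 call was lost with only the HCT116 arrays in the fit (0.0593) and without HCT116 wild-type-only array 1 (0.133) or 2 (0.0658) or mutant-only array 1 (0.0673) or 3 (0.119). The call on the difference was lost without HCT116 wild-type-only array 1 (0.0645), HCT116 mutant-only array 3 (0.0579), DLD1 wild-type-only array 2 (0.0532) or 3 (0.0564), or DLD1 mutant-only array 1 (0.0723).

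APOBEC3B (8073062), the nuclear deaminase known for tumour mutagenesis, separated the lines. It read 12.67, 12.99 and 12.85 in DLD1 wild-type-only and 12.74, 12.83 and 12.78 in DLD1 mutant-only cells. In HCT116 it read 10.79, 10.91 and 10.81 in wild-type-only and 10.37, 10.48 and 10.70 in mutant-only cells. The lowest DLD1 array was thus far above the highest HCT116 array in both genotypes. HCT116 was 3.99-fold lower than DLD1 in wild-type-only cells (limma adjusted p = 4.45e-10) and 4.81-fold lower in mutant-only cells (adjusted p = 1.24e-10). Its group means spanned 2.32, and 1.73% of clusters with a symbol had a wider span. Within HCT116 the mutant-only arrays were all below the wild-type-only ones, by a log2 difference of -0.32 (SE 0.0875) that missed the threshold (adjusted p = 0.0513) and passed with the replicate block (0.0199). It also passed without HCT116 mutant-only array 3 (0.0152), DLD1 wild-type-only array 1 (0.039) or DLD1 wild-type-only array 2 (0.0381). Other settings where it passed were quantile normalization (0.0439), 1-symbol genes only (0.0456), dim clusters left out (0.0389), a mean-variance trend (0.0421) and array weights (0.0241). In the other 12 of 21 alternatives it stayed above the threshold (up to 0.192). Within DLD1 the difference was -0.054 (95% interval -0.24 to 0.14, adjusted p = 0.78).

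APOBEC3A, the most active deaminase of the family and a single-domain enzyme of myeloid cells, read 6.52 to 6.76 in HCT116 and 6.85 to 6.99 in DLD1 through the cluster it shares with APOBEC3A_B. Genotypes differed by -0.097 in HCT116 (limma adjusted p = 0.455), where the arrays did not overlap, and by -0.0197 in DLD1 (adjusted p = 0.891). HCT116 was 1.14-fold lower than DLD1 in wild-type-only cells (adjusted p = 0.0163), a call not kept without DLD1 wild-type-only array 1 (0.0539) or 3 (0.0602), and 1.20-fold lower in mutant-only cells (adjusted p = 0.00181). Over all arrays APOBEC3A, APOBEC3G and APOBEC3H had mean levels under 7.54, the 40th percentile of clusters with a symbol, and signal over background was not assessed, so small differences in these members rest on dim probes.

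**Figure D1:**
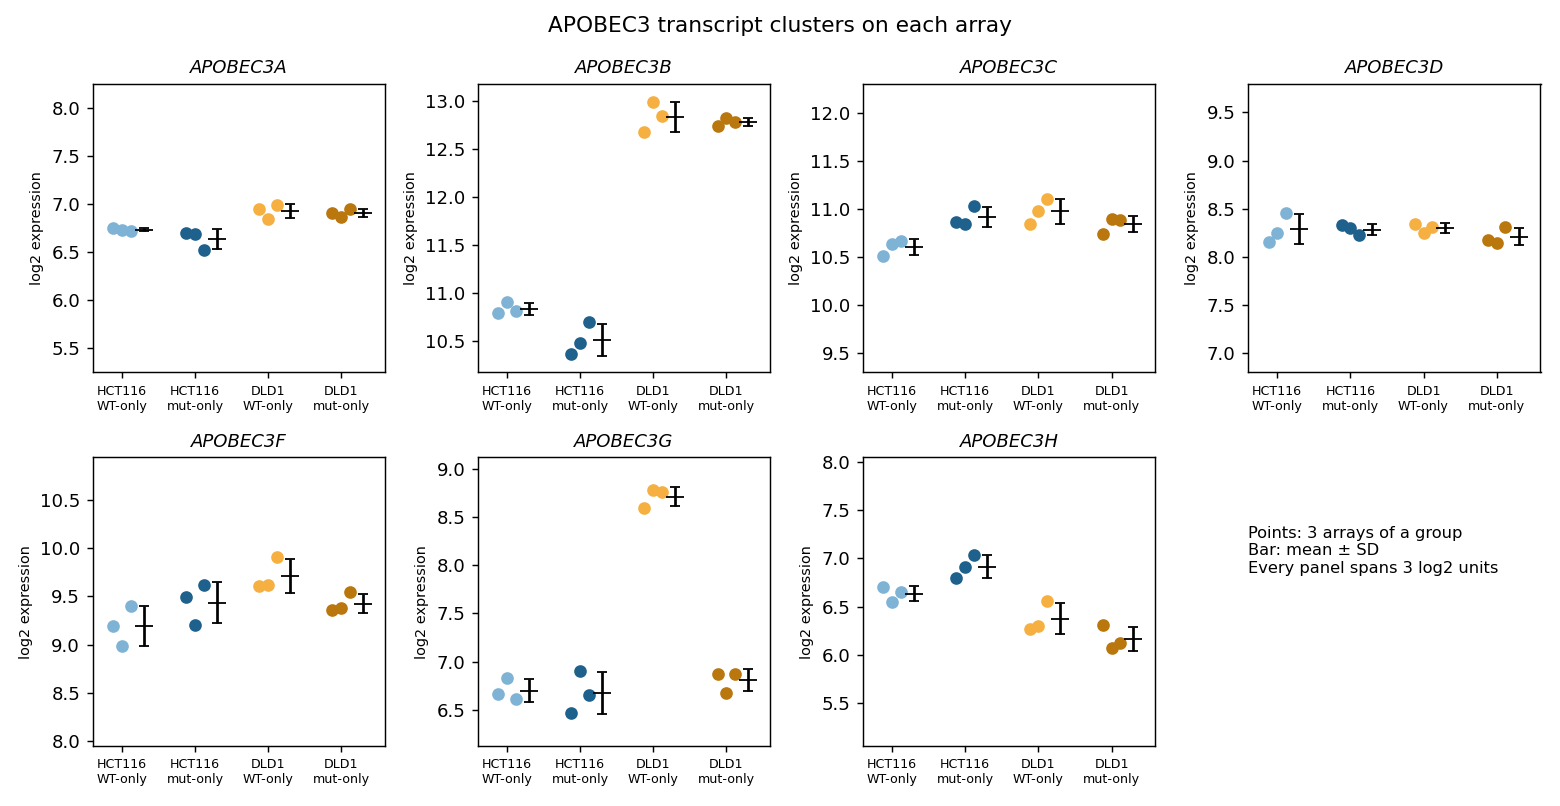
The log2 level of each APOBEC3 transcript cluster on each array (points, vertical axis) in the 4 groups (horizontal axis), with the mean and SD of 3 arrays as a bar beside them, where WT-only is wild-type-only and mut-only is mutant-only. APOBEC3G reads 8.60 to 8.78 in DLD1 wild-type-only cells and 6.47 to 6.90 on the other arrays, and APOBEC3B separates the lines.

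Counted together, 1 of the 7 members was called between genotypes in HCT116, against 5.45% of all clusters tested. That member was higher, as were 3.49% of all clusters, while 1.95% were lower. The count was 3 with the replicate block, where 8.69% of all clusters were called. In DLD1 none of the 6 members other than APOBEC3G was called with limma, against 8.29% of all clusters (5.26% higher and 3.04% lower), although APOBEC3F and APOBEC3H had unadjusted p of 0.0363 and 0.0352. With the block, 1 of the 6 was called against 12.8% of clusters. The wild-type-only and mutant-only arrays lay apart for 4 of the 7 in HCT116, where this held for 21.3% of clusters, and for 1 of the 6 in DLD1, where it held for 27.8%. The median difference was -0.0057 over the 7 members in HCT116 and -0.11 over the 6 in DLD1, beside -0.0029 and -0.0092 over all clusters. In DLD1 all 7 differences were below 0 as deposited, but that of APOBEC3A was above 0 after quantile normalization and after median centring, and that of APOBEC3B with array weights, and each also turned without single DLD1 arrays. The difference between lines was called for 2 of the 6, APOBEC3C and APOBEC3H, against 6.51% of clusters, and both were more positive in HCT116, as were 3.36% of all clusters against 3.16% more negative. With the replicate block APOBEC3F passed too, where 10.5% of all clusters were called. With array weights APOBEC3B passed in the negative direction (-0.45, limma adjusted p = 0.0217) and APOBEC3F in the positive (adjusted p = 0.0459), while APOBEC3H did not pass. The 2 genotype comparisons share no arrays, and the difference uses all 12.

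**Figure D2:**
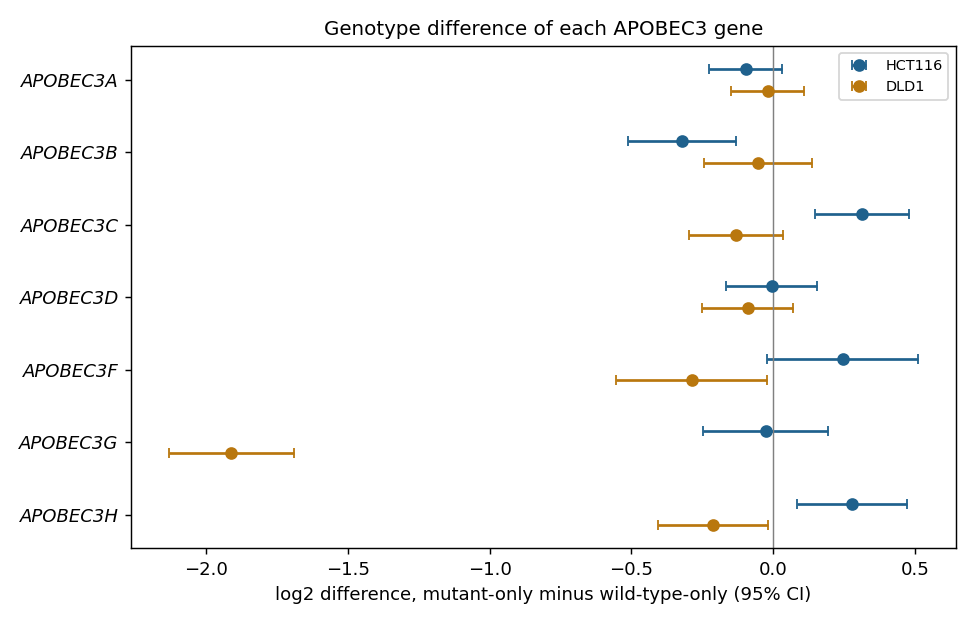
The log2 difference of mutant-only minus wild-type-only cells (horizontal axis) for each APOBEC3 gene in HCT116 and DLD1, with the 95% interval of the limma fit as a bar. APOBEC3G in DLD1 lies at -1.91, and the other differences lie between -0.32 and 0.31.

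Between the lines, 5 of the 6 members other than APOBEC3G differed in wild-type-only cells, 1 higher and 4 lower in HCT116. Of all clusters 47.9% differed there, 23.3% higher and 24.6% lower. In mutant-only cells 3 of the 6 differed, 1 higher and 2 lower, beside 49.7% of all clusters (24.4% higher and 25.2% lower). The arrays of the lines lay apart for 4 of the 6 in wild-type-only cells (54.1% of all clusters) and 3 of the 6 in mutant-only cells (57.2%). APOBEC3A and APOBEC3B were lower in HCT116 in both genotypes, as given above. APOBEC3F was 1.44-fold lower in HCT116 wild-type-only than in DLD1 wild-type-only cells (limma adjusted p = 0.00289), and in mutant-only cells its line difference was 0.0100 (95% interval -0.26 to 0.28, adjusted p = 0.959). APOBEC3C was 1.30-fold lower in HCT116 wild-type-only cells (adjusted p = 0.00106) and differed by 0.0705 in mutant-only cells (interval -0.096 to 0.24, adjusted p = 0.498). APOBEC3H went the other way: it was 1.68-fold higher in HCT116 among mutant-only cells (adjusted p = 9.36e-06) and 1.20-fold higher among wild-type-only cells (adjusted p = 0.0287), where the arrays overlapped. The wild-type-only call of APOBEC3H was lost after median centring (0.054) and without HCT116 wild-type-only array 1 (0.0986) or 3 (0.0685) or DLD1 wild-type-only array 1 (0.122) or 2 (0.104). These comparisons use the same arrays as the genotype comparisons.

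**Figure D3:**
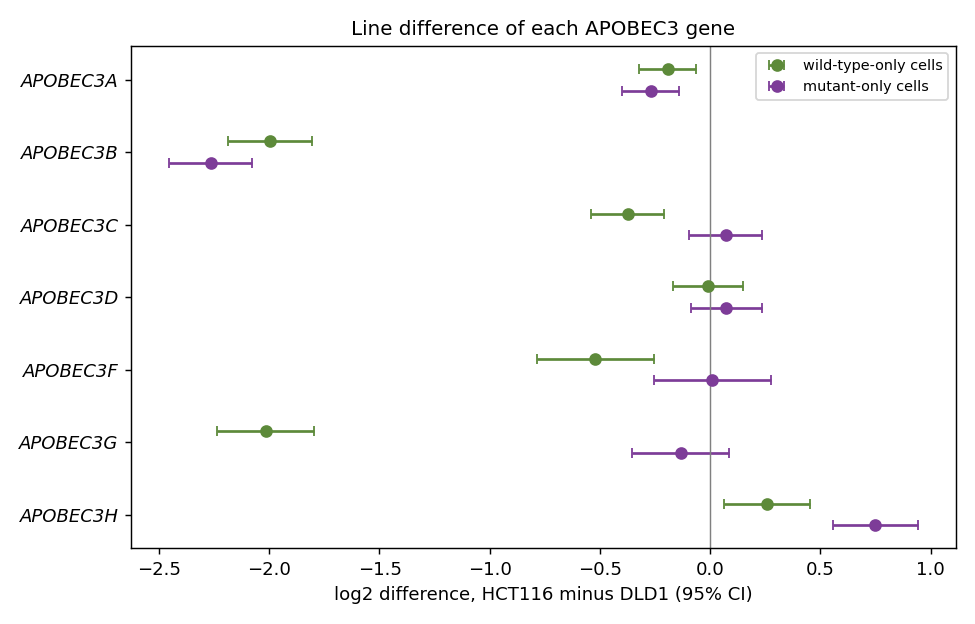
The log2 difference of HCT116 minus DLD1 (horizontal axis) for each APOBEC3 gene in wild-type-only and in mutant-only cells, with the 95% interval of the limma fit as a bar. APOBEC3B lies near -2 in wild-type-only cells and at -2.27 in mutant-only cells, APOBEC3G at -2.02 and -0.13, and APOBEC3H above 0 in both.

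The genes beside the family on chromosome 22 did not share the APOBEC3G pattern in size. Of the 20 nearest protein-coding genes, 10 on each side, 18 had a cluster with their symbol alone, and their DLD1 differences lay between -0.24 and 0.37. In DLD1 FAM227A rose by 0.37 (limma adjusted p = 0.0107), a call not kept without DLD1 wild-type-only array 1 (0.057), and no neighbour fell. In HCT116 2 rose and 1 fell. CBX6 and CBX7, Polycomb chromobox genes, are the measured neighbours on either side of the family: CBX6 rose by 0.30 in HCT116 (adjusted p = 0.00971) and CBX7 fell by 0.35 (adjusted p = 0.024). FAM227A rose by 0.37 there too (adjusted p = 0.0139). The HCT116 call of FAM227A missed the threshold without HCT116 wild-type-only array 1 or mutant-only array 2 (adjusted p up to 0.0576), and that of CBX7 without HCT116 wild-type-only array 2 or 3 or mutant-only array 1 or 2 (up to 0.0948). Of all clusters 5.45% were called in HCT116 and 8.29% in DLD1. With the replicate block, 3 neighbours were called higher and 2 lower in HCT116 (8.69% of all clusters), and 2 higher and 1 lower in DLD1 (12.8% of all clusters). None differed between the lines in its genotype change with limma, where 3 had an unadjusted p under 0.05, and TOMM22 and PDGFB were called with the block. TOMM22 has 2 clusters, and the one with the higher mean (7930870), used here, is numbered between those of CASC2 and NANOS1 and away from the other neighbours, so its value may not come from this locus. The other cluster (8073032) was not called with the block, in DLD1 (0.16, adjusted p = 0.119) or between lines (-0.22, adjusted p = 0.157), which leaves 1 neighbour higher in DLD1 and PDGFB alone between lines (this cluster was tried after seeing the data). The lowest and highest of those 18 differences were -0.30 and 0.24, beside 1.88 for APOBEC3G, and no p is attached to that contrast of values.

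**Figure D4:**
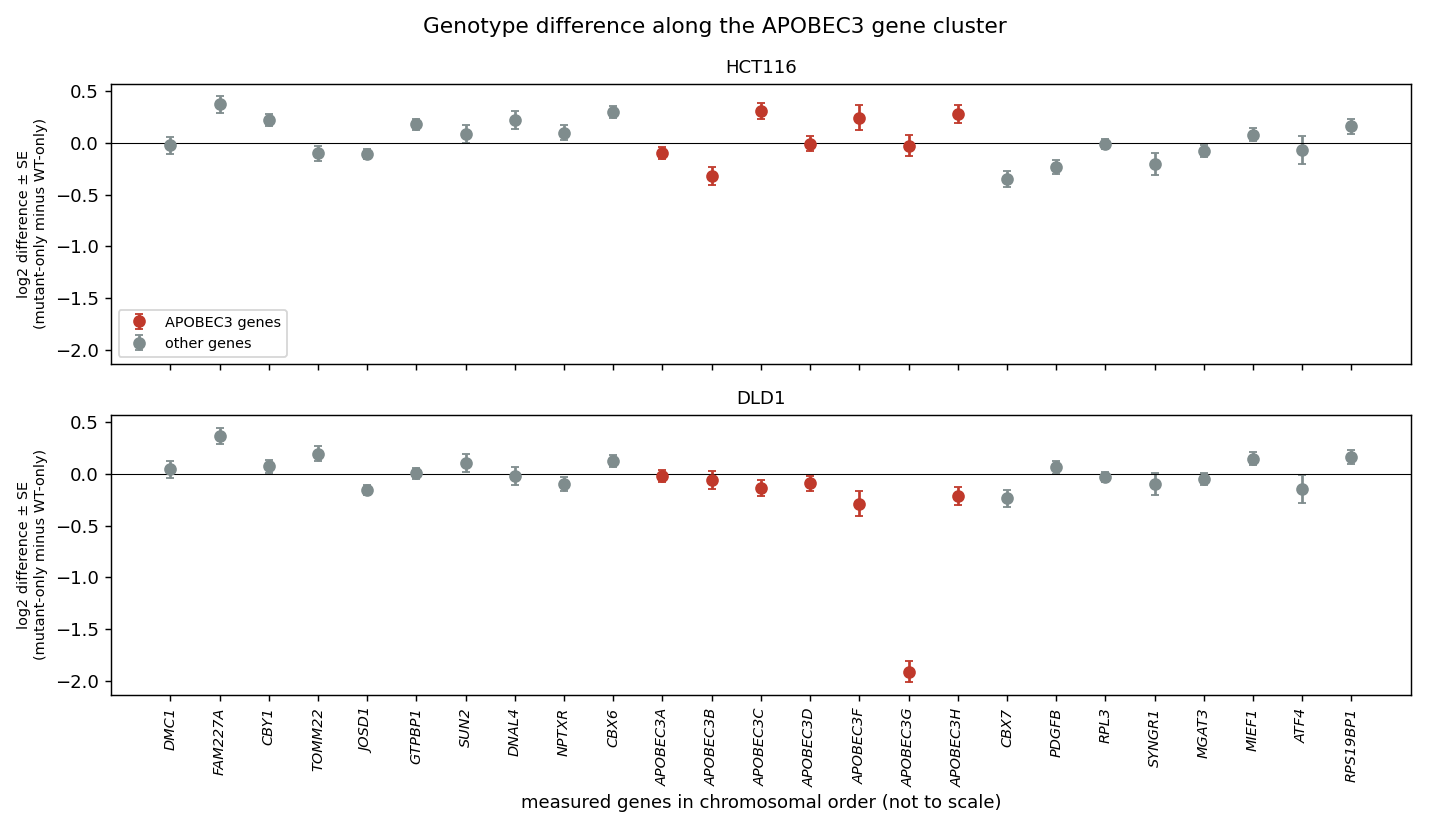
The log2 difference of mutant-only minus wild-type-only cells, with its SE (vertical axis), for the measured genes around the APOBEC3 family in the chromosomal order of the genes (horizontal axis, not to scale), with HCT116 above and DLD1 below. APOBEC3G in DLD1 lies at -1.91, and the 18 measured neighbours lie between -0.24 and 0.37 there.

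Genes of like pattern were ranked by the root mean square difference between their 4 group means and those of the member, each centred on its own mean, over 18328 other genes. The nearest to APOBEC3G was HOXD10, a homeobox gene of the posterior body axis (0.118), whose DLD1 wild-type-only mean was 8.43 ± 0.21 and whose other group means were 6.17 to 6.64. TMPRSS4, a membrane serine protease, followed (0.208), with 9.02 ± 0.17 in DLD1 wild-type-only cells and 7.19 to 7.66 elsewhere. CGAS, the sensor of cytosolic DNA, was the third (0.325), with 6.61 ± 0.05 in DLD1 wild-type-only cells and 5.28 to 5.48 in the other groups. All of these CGAS means were under 7.54, the 40th percentile of clusters with a symbol. The integrin subunit ITGB6 and LHFPL6 came next (0.337 each). Nearest to APOBEC3B were SERP2 (0.0492), PPM1K (0.088), SH3BGRL2 (0.0885), GSTT1 (0.0915) and NDP (0.0949), which like APOBEC3B were higher in both DLD1 groups than in HCT116. These genes were chosen by their group means, so the likeness is a description over 4 means with no test.

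**Figure D5:**
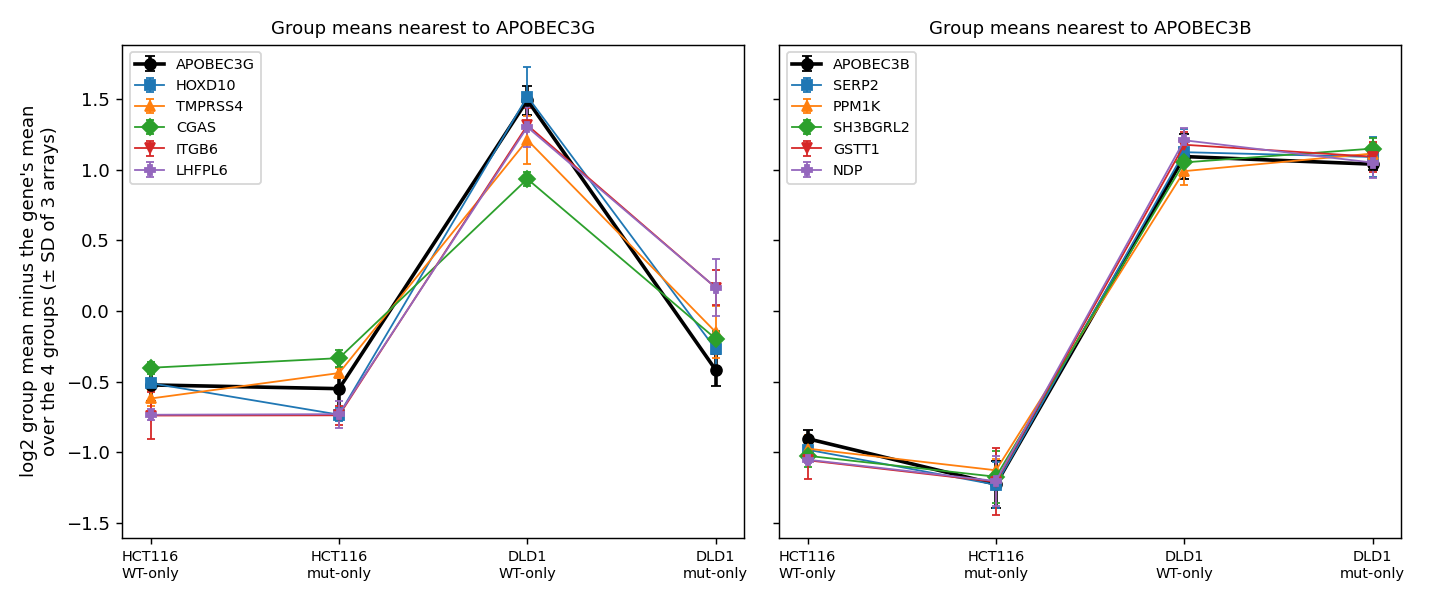
Group means, each centred on the mean of its gene over the 4 groups (vertical axis, log2, bars are the SD of 3 arrays), for APOBEC3G and APOBEC3B (black) and the 5 genes nearest to each. The lines joining the groups only guide the eye. HOXD10, TMPRSS4 and CGAS are higher in DLD1 wild-type-only cells than in the other groups, as APOBEC3G is.

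Of 7 genes of the wider AID and APOBEC family and the APOBEC1 cofactors, 5 had a cluster of their own. None was called in either line with limma (1 in HCT116 and 0 in DLD1 at an unadjusted p under 0.05, and none with the replicate block). Of all clusters 5.45% were called in HCT116 and 8.29% in DLD1. APOBEC1, which edits apolipoprotein B RNA in the gut, differed by -0.17 in HCT116 (adjusted p = 0.191) and -0.12 in DLD1 (adjusted p = 0.351). Its cofactor RBM47 stood at 9.67 ± 0.14 in HCT116 wild-type-only and 10.84 ± 0.04 in DLD1 wild-type-only cells (SD, n = 3), a line difference that passed (limma adjusted p = 4.58e-08). Among 10 other deaminases none was called in HCT116 with limma, against 5.45% of all clusters, and 2 had an unadjusted p under 0.05 there. In DLD1 2 rose, or 20% against 8.29% of all clusters. These were ADA, which deaminates adenosine, by 0.46 (adjusted p = 0.0144), and CDA, which salvages cytidine, by 0.33 (adjusted p = 0.0481). The ADA call failed without DLD1 wild-type-only array 1 or 2 or DLD1 mutant-only array 2 (adjusted p up to 0.0708). CDA kept its call only in the fits without HCT116 wild-type-only array 1, HCT116 wild-type-only array 2 or DLD1 wild-type-only array 3 (adjusted p up to 0.153 in the others).

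The repair of uracil, the product of these enzymes, was covered by 19 genes of base excision and translesion synthesis. In HCT116 1 fell, or 5.26% against 5.45% of all clusters, and in DLD1 2 rose, or 10.5% against 8.29%. UNG, the main uracil DNA glycosylase, differed by 0.16 in HCT116 (limma adjusted p = 0.171) and by -0.022 in DLD1 (adjusted p = 0.875). The glycosylase NEIL1 fell by 0.35 in HCT116 (adjusted p = 0.0381) and its genotype change differed between lines (-0.49, adjusted p = 0.0332). In DLD1 the gap-filling polymerase POLB rose by 0.20 (adjusted p = 0.0464), as did MAD2L2, a subunit of polymerase zeta, by 0.20 (adjusted p = 0.0304). The HCT116 call of NEIL1 was kept only without HCT116 wild-type-only array 2 or DLD1 wild-type-only array 2 or 3 (adjusted p up to 0.131 otherwise). Its call between lines was kept only without HCT116 wild-type-only array 2, HCT116 mutant-only array 1 or DLD1 wild-type-only array 3 (up to 0.0798 otherwise). POLB kept its call only without HCT116 wild-type-only array 2 or 3 or DLD1 mutant-only array 2 (up to 0.174 otherwise), and MAD2L2 lost it without any 1 of the 6 DLD1 arrays other than mutant-only array 3 (up to 0.112). With the replicate block XRCC1, a repair scaffold, was also called higher in both lines (adjusted p = 0.00653 in HCT116 and 0.0405 in DLD1). The median difference over the 19 genes was 0.087 in HCT116 and 0.0797 in DLD1, beside -0.0029 and -0.0092 over all clusters.

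Other restriction factors against retroviruses and retroelements gave 3 higher and 1 lower of 17 measured in HCT116, or 23.5% against 5.45% of all clusters. In DLD1 they gave 1 higher and 1 lower, or 11.8% against 8.29%. SERINC5, which blocks virus entry and is countered by HIV Nef, rose from 10.34 ± 0.06 to 10.89 ± 0.06 in HCT116 (SD, n = 3, limma adjusted p = 8.36e-05). In DLD1 it differed by -0.17 (adjusted p = 0.1), and the change differed between lines (0.72, adjusted p = 0.000154). MX2, an interferon-induced inhibitor of HIV nuclear entry, fell from 8.60 ± 0.06 to 7.89 ± 0.14 in DLD1 (SD, n = 3, adjusted p = 7.01e-05) and its change also differed between lines (0.58, adjusted p = 0.00467). In HCT116 MX2 stood at 6.45 in wild-type-only and 6.32 in mutant-only cells, both under 7.54, the 40th percentile of clusters with a symbol. Whether a fall could be read from that level was not tested. SAMHD1, which depletes nucleotides, rose in DLD1 by 0.41 (adjusted p = 0.00708). In HCT116 it differed by 0.30 (adjusted p = 0.0514, and 0.0279 with the replicate block). MORC2, a silencer of retroelements, rose by 0.31 in HCT116 (adjusted p = 0.0274), a call not kept without HCT116 wild-type-only array 1 or 2 or mutant-only array 1 or 3 (up to 0.113). TRIM5 rose by 0.25 (adjusted p = 0.0428) and held only without DLD1 wild-type-only array 3 (up to 0.17 otherwise). IFITM1 fell by 0.48 (adjusted p = 0.0393, and 0.0574 with the block), and held only without HCT116 wild-type-only array 2, HCT116 mutant-only array 2 or DLD1 wild-type-only array 3 (up to 0.142 otherwise). With the block 6 of the 17 were called higher and none lower in HCT116, where 8.69% of all clusters were called, and 6 against 2 without it differed between lines, where 10.5% were.

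Interferon-stimulated genes, a class to which several APOBEC3 genes belong in immune cells, gave none higher and 2 lower of 25 in DLD1, or 8% against 8.29% of all clusters. In HCT116 they gave none higher and 1 lower, or 4% against 5.45%. IFIT3, which binds viral RNA complexes, fell by 0.57 in DLD1, from 7.32 ± 0.07 to 6.75 ± 0.09 (SD, n = 3, limma adjusted p = 0.000198). Its change differed between lines by 0.74 (adjusted p = 0.000503). In HCT116 IFIT3 stood at 6.71 in wild-type-only and 6.88 in mutant-only cells, and its means in both lines were under 7.54, the 40th percentile. OAS1, an activator of RNase L, fell by 0.45 in DLD1, from 9.75 ± 0.05 to 9.30 ± 0.15 (SD, n = 3, adjusted p = 0.00901). The ubiquitin-like modifier ISG15 fell by 0.27 in HCT116 (adjusted p = 0.0122) and differed by 0.088 in DLD1 (adjusted p = 0.393). These calls held in all 12 fits that left out an array. With the replicate block OAS3, another activator of RNase L, was called higher in HCT116 (0.31, adjusted p = 0.0139), so that 1 of the 25 rose and 1 fell there. In that fit 8.69% of all clusters were called. Between lines 2 genes, IFIT3 and OAS1, had a more positive change in HCT116 and 1, ISG15, a more negative one, or 12% against 6.51% of all clusters. The call of OAS1 between lines (0.48, limma adjusted p = 0.046) was lost in 9 of the 12 fits without 1 array (up to 0.109). With the block, where 10.5% of all clusters were called, OAS3 (adjusted p = 0.0312) and DDX60 (adjusted p = 0.0266) also had a more positive change in HCT116. The list's median difference was 0.052 in HCT116 and -0.019 in DLD1.

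Of 24 measured interferon and NF-kB signalling genes, 1 rose and 1 fell in DLD1, or 8.33% against 8.29% of all clusters. In HCT116 1 fell, or 4.17% against 5.45%, and the replicate block gave 1 higher and 2 lower there (8.69% of all clusters). CHUK, an IkB kinase, rose by 0.26 in DLD1 (limma adjusted p = 0.0123) and fell by 0.21 in HCT116 (adjusted p = 0.0491), and the changes differed (-0.47, adjusted p = 0.00301). The DLD1 call of CHUK was lost without DLD1 mutant-only array 3 (0.0548), and its HCT116 call held only without DLD1 mutant-only array 2 or 3 (up to 0.162 otherwise). IFNGR2, a chain of the interferon gamma receptor, fell by 0.31 in DLD1 (adjusted p = 0.00816). HIV Vif degrades APOBEC3G through a cullin 5 ubiquitin ligase and CBFB, the partner of the RUNX transcription factors. Of 8 measured genes of this group, RUNX1 rose in DLD1 by 0.35 (adjusted p = 0.0132), or 12.5% called against 8.29% of all clusters. In HCT116 none was called with limma, against 5.45% of all clusters, and 1 had an unadjusted p under 0.05. The RUNX1 call failed without DLD1 wild-type-only array 1 (0.0681). CBFB, the cofactor of Vif, differed by -0.074 in HCT116 (adjusted p = 0.522) and by -0.14 in DLD1 (adjusted p = 0.134). With the block RUNX2 was called lower in both lines (adjusted p = 0.0202 in HCT116 and 0.0138 in DLD1), and the change of RUNX1 differed between lines (-0.35, adjusted p = 0.0219, and 0.0798 without the block).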

How the data were processed

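Biotin-labelled DNA made from the RNA of 12 samples was measured on Affymetrix HuGene arrays, per the labels' protocols and the file headers. The deposited values are the authors' log2 levels per transcript cluster, 28869 in all. Their background correction and normalization were stated neither in the labels nor in the file headers. With 3 arrays per group, precision rests on few samples, and the p-values measure the spread between these samples, which may be technical.

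Symbols came from the platform annotation (19310 clusters with 1 symbol, 1752 with several, 7807 with none here). They were updated from NCBI's RefSeq genes (GRCh38.p14), which also gave the order of neighbours. Group means were fitted with limma 3.58.1 in R 4.3.3 over the 21062 clusters with a symbol and all 12 arrays (8 residual and 4.78 prior degrees of freedom), with two-sided p-values. Other genes were read from the 1-symbol cluster with the highest mean, and Y-linked genes and XIST were left out of the ranking by likeness. The text names all members, the list genes called in a genotype comparison (at most 3 rises and 3 falls per list and line), the 5 genes nearest in pattern to APOBEC3G and to APOBEC3B, and neighbours out of the 10 genes on each side. The other genes named (CDH17, EPCAM, CDX1, VIL1, CD8A, APOBEC1, RBM47, UNG, CBFB and those that passed with the block alone) were chosen after their values were seen.

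Same-numbered arrays of a line deviated from their group means together (correlations of 0.148 to 0.481 in 6 pairs, above the minimum of 0.1), whereas the 12 other pairs gave -0.339 to 0.198. The labels state no pairing. A limma fit with that number as a block inside each line (4 residual degrees of freedom) is given where it changed a member's call or a count of called list genes between genotypes. The fit was tested on simulated data. The members, lists and tests were chosen with earlier results of these data known.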

Additional observations from a re-analysis of the deposited data

Results flagged for a closer look

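The genotype change was called different between HCT116 and DLD1 for 2 of the 6 members tested. Each difference is counted as HCT116 minus DLD1 in mutant-only minus wild-type-only cells. APOBEC3G, dim in both HCT116 groups, is described beside them with no p, since its DLD1 change was known when the family was chosen. For APOBEC3G the difference was 1.88. For APOBEC3C it was 0.44 (limma adjusted p = 0.0262) and for APOBEC3H 0.49 (adjusted p = 0.0352). In both genes the difference of mutant-only minus wild-type-only was above 0 in HCT116 and below 0 in DLD1, and of these 4 differences that of APOBEC3C in HCT116 alone passed the test.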

How the results depend on the processing

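For single members, 648 of 713 values under the alternatives kept their direction and side of the threshold, 26 lost a call, 16 gained one and 22 turned sign, all of the last in values that had not passed. In HCT116 the count of called members was 1, and 2 after quantile normalization, with 1-symbol genes only, with a mean-variance trend, with array weights and with dim clusters left out, where 4 members remained in the fit. The member added in these settings was APOBEC3B. The HCT116 count was 3 with the replicate block, 0 with only the HCT116 arrays and 0 to 2 when an array was left out. In DLD1 it was 0, and 1 with the replicate block. The count for the difference between lines was 2, and 1 with all transcript clusters and with dim clusters left out, 0 to 2 when an array was left out, and 3 with the replicate block and with array weights. Between lines it was 5 in wild-type-only cells (3 with dim clusters left out, 3 to 5 when an array was left out) and 3 in mutant-only cells (1 with dim clusters left out). The replicate block changed no call of a member other than those of APOBEC3B and APOBEC3F given above, and a block shared by both lines, added after the data were seen, changed none between lines. Signs turned in the HCT116 difference of APOBEC3G after quantile normalization (0.0067) and when an array was left out (-0.14 to 0.076), and in that of APOBEC3D after median centring (0.013), with array weights (0.016) and when an array was left out (-0.071 to 0.079). In DLD1 they turned for APOBEC3A after quantile normalization (0.023), median centring (0.025) and without an array (-0.061 to 0.011), and for APOBEC3B with array weights (0.065) and without an array (-0.14 to 0.022). Between lines they turned for APOBEC3D in wild-type-only cells without an array (-0.095 to 0.054), and in mutant-only cells for APOBEC3C after median centring (-0.0015) and APOBEC3F after median centring (-0.062) and without an array (-0.079 to 0.13). The cause was not tested. With array weights the APOBEC3G difference between lines was 1.73, and the count of all clusters called was 5507 in DLD1 beside 1747, and 2432 for the difference beside 1372. With the replicate block these counts were 2696 and 2207, and 1830 in HCT116 beside 1147. In HCT116 the count was 649 with its own arrays only, 707 without HCT116 wild-type-only replicate 1 and 695 without HCT116 mutant-only replicate 1, and in DLD1 it was 1040 without DLD1 wild-type-only replicate 1 and 1098 without DLD1 mutant-only replicate 1. The mean over several clusters of a gene was not run, since each member had 1. The difference between lines uses all arrays, so a fit of only the compared arrays gave no other value.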
